A study of Mus musculus with 2 samples.

Results

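Of the 31881 genes and unnamed transcripts on a mouse expression array, a list of 10 is described here. They are genes of the smooth muscle contractile apparatus and of the filaments that mark hepatic stellate cells: Acta2, Actg2, Tagln, Cnn1, Cnn2, Tpm1, Tpm2, Myl9, Des and Vim. The array holds further genes of these systems. Their probes were chosen by the gene name printed in the scanner file of the wild-type array, which gave 16 probes on 34 spots, and the same spots were read on the ob/ob array. The samples were cultures labelled as liver sinusoidal endothelial cells, the fenestrated cells that line the liver capillaries. One culture came from a wild-type mouse and the other from an ob/ob mouse, a strain that carries a defective leptin gene and becomes obese. Both mice were male and 8 weeks old, both livers were digested with collagenase, and both cultures stood overnight in medium with serum. A purification step after digestion is not given in the sources used here, nor is the strain background. Each genotype is 1 mouse and 1 array, so every difference compares 2 arrays, carries no p-value and contains no spread between mice.

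In a contractile cell, actin filaments are pulled by myosin II when its regulatory light chain is phosphorylated. Tropomyosin, calponin and transgelin coat the actin filament and tune that pull, while desmin and vimentin form the intermediate filaments that hold the apparatus in place. In liver these genes are known from the smooth muscle of portal vessels and from stellate cells, the retinoid-storing pericytes of the sinusoid, which hold desmin at rest and gain smooth muscle actin when activated, also in culture. Serum response factor switches on many of them through the CArG box, and vimentin, Tpm1 and Cnn2 are also made by endothelial and other non-muscle cells.

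Of the 10 genes, 8 were measured on both arrays and 5 of those were at least 2-fold higher in the ob/ob culture: Acta2, Myl9, Des, Tpm2 and Tagln. None was at least 2-fold lower, and Cnn2, Vim and Tpm1 lay within 2-fold. Of all 18139 genes measured on both arrays, 5.82% passed that fold upward and 2.29% passed it downward, or 4.23% and 5.39% with scaling on the array median. The median difference over the 8 genes was 1.45 on the log2 scale (ob/ob minus wild-type), and over all measured genes it was -0.12. Cnn1 and Actg2, which mark mature smooth muscle, were not well above background on either array. The 8 measured genes include no gene seen on a single array, so the filter on dim probes removed only those 2.

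Signals below are the scanner's processed intensities. Differences and folds were taken after each signal was divided by the 75th percentile of its array, 989 for the wild-type and 1430 for the ob/ob sample, so a fold is smaller than the plain ratio of the signals. In such bulk cultures, more cells of a type and more RNA per cell cannot be told apart.

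**Figure D1:**
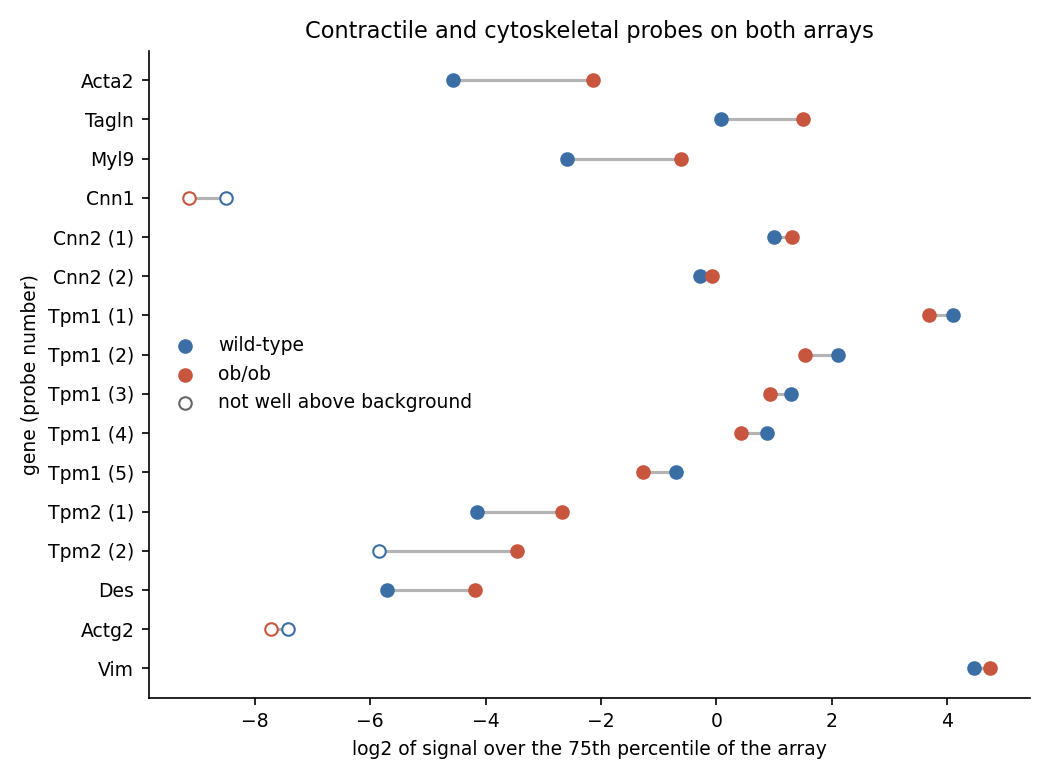
Level of each of the 16 probes on the wild-type (blue) and the ob/ob (red) array, as log2 of the signal over the 75th percentile of that array. Probes are numbered within a gene from the brightest, open circles are not well above background, and levels of different probes are not comparable. Acta2, Tagln, Myl9, Tpm2 and Des lie further right on the ob/ob array, and all 5 probes of Tpm1 further left.

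Acta2, smooth muscle alpha-actin and the usual sign of an activated stellate cell, had the largest difference of the 10 genes. Its single probe (mm9 chromosome 19, 34316060 to 34316119, minus strand) is printed on 10 spots of each array. On the wild-type array the 9 kept spots ran from 36.1 to 47.2 with a mean of 41.8 ± 2.89 (SD over spots), and 1 spot was dropped as a population outlier. On the ob/ob array the 10 spots ran from 293 to 344 with a mean of 323 ± 16.1. All kept spots were well above background. The difference was 2.42 ± 0.14 (SD over the 9 spot pairs kept on both arrays), a fold of 5.36, and single pairs ran from 2.10 to 2.61. These SDs measure spotting and scanning only. Of all measured genes, 1.12% had a larger difference. The other smooth muscle actin, Actg2, had signals of 5.76 and 6.79, neither well above background.

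With normexp background correction, an alternative that subtracts the local background under a model, the Acta2 difference was smaller: 0.33 after scaling on the 75th percentile and 1.09 after quantile normalization. Normexp left spots with no signal at different heights. Cnn1, at background on both arrays, received 195 for the wild-type and 63.8 for the ob/ob sample. The wild-type normexp signals of Acta2, Tpm2 and Des, 236, 251 and 216, lay close above that wild-type floor.

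**Figure D2:**
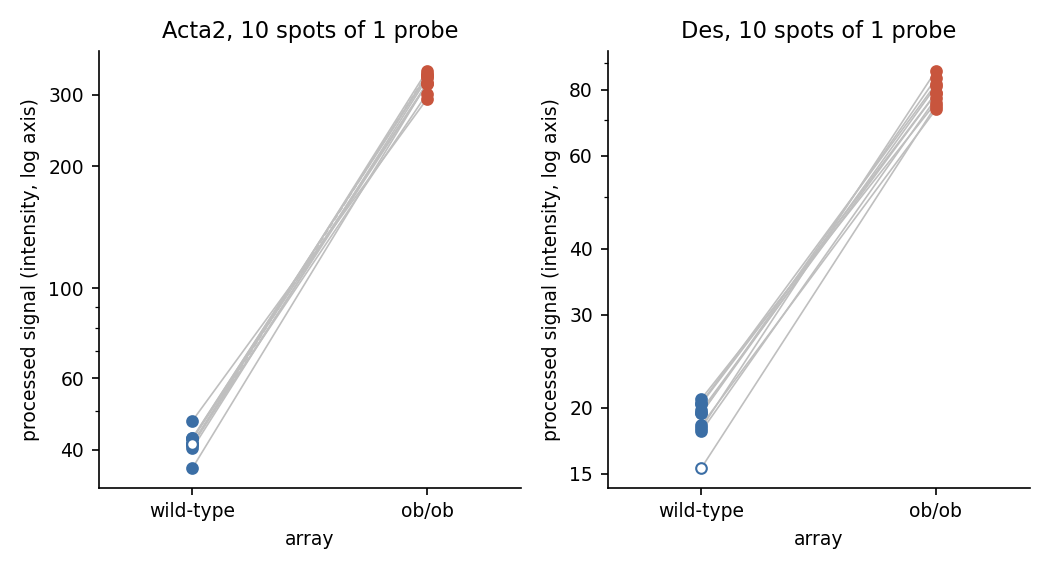
Processed signal (log axis) of the 10 spots of the Acta2 probe and the 10 spots of the Des probe on each array, with lines joining the spot at the same position. Open circles mark the Acta2 spot dropped on the wild-type array and the Des spot not well above background. For both genes every ob/ob spot lies above every wild-type spot, in signals not scaled between the arrays. The share of other probes with 10 spots that separate likewise was not counted.

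The stretch of 250 bases before the annotated start of Acta2 is shown because it carries the sites through which serum response factor is known to act. It comes from RefSeq on GRCm38.p6 (chr19:34255374-34255623, minus strand), and capitals mark CArG boxes that differ from the full motif at 1 letter of the core.
Acta2: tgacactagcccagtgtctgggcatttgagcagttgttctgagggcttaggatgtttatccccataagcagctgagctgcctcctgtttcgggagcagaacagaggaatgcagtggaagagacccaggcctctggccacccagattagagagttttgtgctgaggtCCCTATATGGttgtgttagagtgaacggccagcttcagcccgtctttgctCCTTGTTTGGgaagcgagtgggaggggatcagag
The CArG box was searched as a pair of C, a core of 6 letters that are each A or T, and a pair of G, which reads alike on both strands. Acta2 had no full box in this window and 2 boxes with 1 core letter changed, starting 84 and 34 bases before the start. Of the 10 genes, 8 had a promoter in the RefSeq table (Tagln and Actg2 are not in it), 2 of these 8 held a full box and 3 held a full box or one with 1 core letter changed. Over all 32851 promoters of the table, 1.47% held a full box and 8.59% a full or a changed box in the same window. A match describes the letters and is not shown to be a site in these cells.

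Tagln, transgelin or SM22-alpha, an actin-bundling protein of smooth muscle and activated fibroblasts, was the bright member of the group that differed. Its probe (chromosome 9, 45738097 to 45738156, mm9) had a wild-type signal of 1049.9 and an ob/ob signal of 4040. The difference was 1.41 ± 0.20 (SD of the scanner's error model, single spots), a fold of 2.66, and 3.65% of all measured genes had a larger one. Among the settings tried, Tagln ran from 1.13 with scaling on the array median to 1.52 with the percentile taken over probes above background on both arrays, and stayed at least 2-fold higher in 11 of 11. Not all of these could move a gene read by a single spot. Averaging probes, keeping dropped spots and lifting the dim-probe filter returned the same value, and the authors' deposited table uses the same scaling. Its signals lie far above the background on both arrays.

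The calponins bind actin and restrain myosin, and the 2 on the list behaved differently. Cnn1, the isoform of differentiated smooth muscle, had signals of 2.73 and 2.53, substitute values that the scanner software gives to spots at background. Cnn2, the isoform of fibroblasts, leukocytes and endothelium, had signals of 1983 and 3530 at its brighter probe and 810 and 1350 at the other. These gave differences of 0.30 ± 0.20 and 0.20 ± 0.20 (SD of the error model), both within 2-fold.

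The tropomyosins, coiled coils that lie along the actin filament and gate its access to myosin, also differed from each other. Tpm2, the beta chain of muscle, had signals of 55.6 and 225 at its brighter probe, a difference of 1.48 ± 0.22 or 2.80-fold. Its other probe read 17.3 on the wild-type array, not well above background, and 131 on the ob/ob array. That is 5.25-fold higher after scaling, with an error-model SD of 0.37 on the log2 scale. Both Tpm2 probes were therefore brighter in the ob/ob culture. With normexp and the 75th percentile the Tpm2 difference was -0.17, and with normexp and quantile normalization it was 0.60.

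Tpm1, the alpha chain, is spliced into many muscle and non-muscle forms and was read by 5 probes annotated to 4 RefSeq transcripts. The brightest had signals of 16904 and 18400 and a difference of -0.41 ± 0.20. Over the 5 probes, differences ran from -0.57 to -0.37, with a mean of -0.47 ± 0.09 (SD over probes). All 5 were thus slightly lower in the ob/ob culture and within 2-fold. Their SD was smaller than the error-model SD of the difference at a single probe, 0.20, but 2 of the 5 probes overlap. Relative to the median of all genes the brightest Tpm1 probe stood at -0.29, or at -0.36 to 0.09 over the settings tried, and relative to genes of like brightness at -0.14. The difference of Tpm2 exceeded that of Tpm1 by 1.89, or by 0.03 to 1.95 over the settings tried, lowest with normexp and the 75th percentile.

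The first 30 of the 60 bases of each tropomyosin probe are printed because the probes of Tpm1 and Tpm2 gave opposite signs. Capitals mark the stretch that 2 overlapping Tpm1 probes have in common, which continues to 46 bases in their full length.
Tpm2, brighter probe (mm9 chr4:43532262-43532321): ggagatgcagctgaaggaagccaagcacat
Tpm2, dimmer probe (mm9 chr4:43531276-43531335): attccaccaaagaggacaaatacgaagaag
Tpm1, brightest probe (mm9 chr9:66871166-66871225): gaaaaccttagtatgcaccagatgctggat
Tpm1, probe 2 (mm9 chr9:66880274-66880333): ggaagaacagttaagaataatggatcagac
Tpm1, probe 3 (mm9 chr9:66875796-66875855): ccttagggccaggcACAGACTGCTTTCTAT
Tpm1, probe 4 (mm9 chr9:66875782-66875841): ACAGACTGCTTTCTATTGTACAGAAGCAAT
Tpm1, probe 5 (mm9 chr9:66872131-66872190): gagggctgcctgcctggcccgtgtttccct
Probes 3 and 4 of Tpm1 share most of their bases and are not independent readings. Between probes of different genes of the group, the longest run of identical bases was 9 of 60 over 108 pairs, so the 10 genes were not read through a common stretch. Whether a probe lies in an exon, intron or UTR was not annotated here, since no annotation of build mm9 was used.

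Myl9, the regulatory light chain of smooth muscle and non-muscle myosin II, had a wild-type signal of 164 and an ob/ob signal of 939 (chromosome 2, 156607301 to 156607360, mm9). The difference was 1.98 ± 0.21 (SD of the error model, 1 spot per array), a fold of 3.95, and 1.86% of measured genes had a larger one. Myl9 was at least 2-fold higher under 11 of 11 other settings, with 1.06 to 2.09 as its range. As for Tagln, probe averaging, kept dropped spots and no dim-probe filter could not change the value of a single spot. Both spots were well above background.

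The promoters of Myl9 and Cnn2 are set side by side because both hold a full CArG box while their differences, 1.98 and 0.30, lay on either side of 2-fold. Both come from RefSeq on GRCm38.p6, the 250 bases before the start on the plus strand, at chr2:156775214-156775463 and chr10:79988350-79988599, and capitals mark full boxes and boxes with 1 core letter changed.
Myl9: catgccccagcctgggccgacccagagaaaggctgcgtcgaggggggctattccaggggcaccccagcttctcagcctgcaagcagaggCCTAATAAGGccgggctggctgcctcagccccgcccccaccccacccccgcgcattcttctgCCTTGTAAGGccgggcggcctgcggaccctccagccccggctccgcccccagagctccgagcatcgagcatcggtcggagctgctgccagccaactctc
Cnn2: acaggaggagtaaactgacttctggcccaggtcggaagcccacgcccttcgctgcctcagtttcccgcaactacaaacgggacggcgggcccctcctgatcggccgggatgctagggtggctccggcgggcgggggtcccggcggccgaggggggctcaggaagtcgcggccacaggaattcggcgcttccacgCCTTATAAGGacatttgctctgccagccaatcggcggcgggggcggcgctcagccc
The full box starts 161 bases before the start of Myl9, whose changed box lies at 99 bases, and 56 bases before the start of Cnn2. In the same window Des, Tpm2, Tpm1, Vim and Cnn1 had neither form, so the 4 genes with a promoter here that were at least 2-fold higher split evenly, Acta2 and Myl9 with a box of either form and Des and Tpm2 without. CATTCC, the motif of the TEAD factors, searched on both strands, was found in Acta2 (146 bases before the start) and Tpm1 (56 bases), against 12.6% of all promoters. TATAAA, searched likewise, was found 32 bases before the start of Vim, against 12.4%.

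Des, desmin, the intermediate filament protein of muscle and of stellate cells, was dim but read on 10 spots of each array. Its probe spans 226 bases of chromosome 1 (75363404 to 75363629, mm9) with 60 bases of sequence, and so joins separate stretches of the genome. Wild-type spots ran from 15.4 to 20.8 with a mean of 19.1 ± 1.60 (SD over 10 spots), 9 of them well above background. The ob/ob spots ran from 73.4 to 86.9 with a mean of 79.2 ± 4.31, all above background. The difference was 1.53 ± 0.13 (SD over 10 spot pairs), a fold of 2.88. Des depended on the processing more than any other of the 8 genes: it was -0.92 with normexp and the 75th percentile, 0.35 with normexp and quantile normalization, and at least 2-fold higher in 8 of 11 settings. Those 8 include settings that could not change a gene with a single probe and no dropped spot, such as probe averaging. At 12.3, the dimmest wild-type signal called above background lies close to the wild-type signal of Des.

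Vim, vimentin, the intermediate filament protein of endothelial and mesenchymal cells alike, was bright on both arrays, with signals of 21871 and 38200. The difference was 0.27 ± 0.20 (SD of the error model), within 2-fold, and 19.1% of measured genes had a larger one. Its sign turned with scaling on the array median, to -0.01.

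**Figure D3:**
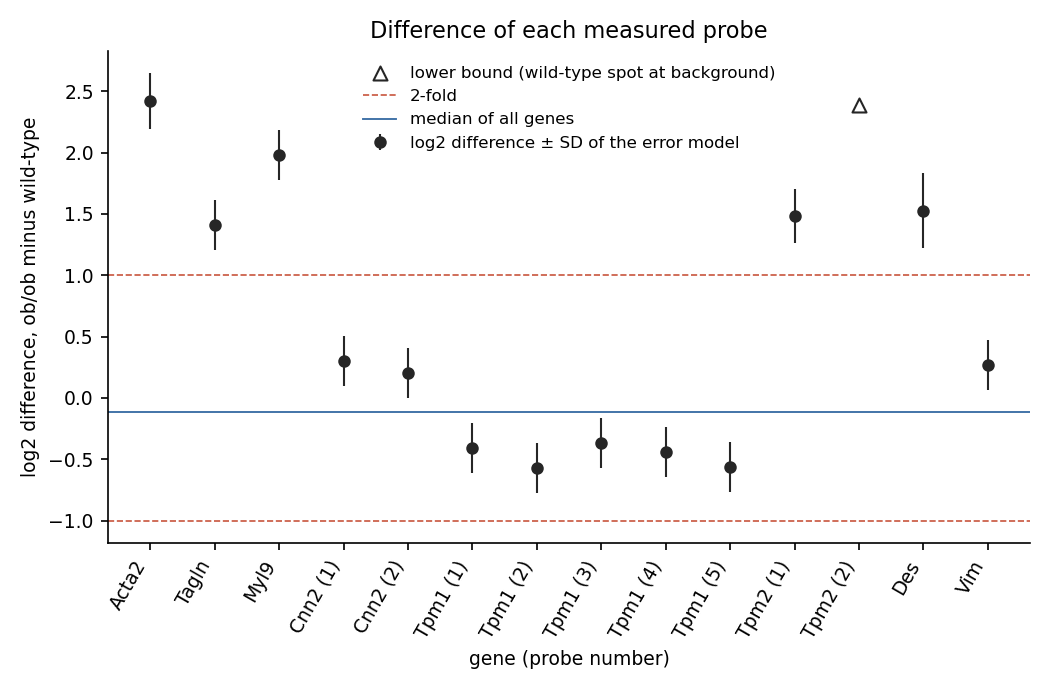
Difference of each probe above background on the ob/ob array, as log2 of ob/ob minus wild-type. Bars are the SD of the scanner's error model, which holds no spread between mice. The triangle is the nominal lower bound of the second Tpm2 probe. Dashed lines mark 2-fold and the blue line the median of all genes. Acta2, Tagln, Myl9, Tpm2 and Des lie above the upper dashed line and the other probes between the lines.

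For most of the 10 genes a paralogue made by nearly all cells is on the array, and pairing them, a choice made after the values were seen, shows how unequal the differences were. Beta-actin Actb, with signals of 181597 and 196000, differed by -0.42 at its brighter probe and 0.20 at the other, and the brighter probe stood at 0.05 after quantile normalization. Gamma-actin Actg1 differed by -0.39 at its brightest probe, and its 5 probes ran up to 0.78; that brightest probe stood at 0.10 after quantile normalization. The Acta2 difference exceeded that of Actb by 2.84, and by 0.52 to 2.85 over the settings tried. Tagln exceeded Tagln2, the transgelin of leukocytes and other non-muscle cells, by 1.72 (1.22 to 1.73). Tagln2 itself differed by -0.31 at its brighter probe, used for this gap, and by 0.58 at the other, which lies nearer to Tagln. Myl9 exceeded Myl12a and Myl12b, the widely made regulatory light chains, by 1.99 (0.85 to 1.99) and 1.92 (0.88 to 1.92), and Myl6, an essential light chain, by 2.33 (1.26 to 2.34). Cnn2 exceeded Cnn3, another widely made calponin, by 0.64 (0.37 to 0.64). Des exceeded Vim by 1.25, or by -1.53 with normexp without offset, so the order of these filament proteins was not settled.

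Other genes of the actin, myosin and intermediate filament systems, 66 in 5 lists that include keratins and lamins, had 55 members measured on both arrays. Of these, 6 were at least 2-fold higher, 10.9%, and 0 lower, against 5.82% and 2.29% of all measured genes. The median was -0.16, or 0.04 after quantile normalization. With scaling on the array median 2 were lower, against 5.39% of all genes. With normexp and the 75th percentile 2 were higher and 2 lower, against 2.03% and 21.1% of all genes. Without the intermediate filament list 3 of 48 were at least 2-fold higher, 6.25%, close to the 5.82% of all genes. This was 0 of 48 with normexp and the 75th percentile. With that correction 1 of the 9 measured thin filament partners was at least 2-fold lower, against 21.1% of all genes. As reported, none of the 9 lay beyond 2-fold (median -0.32, or 0.05 after quantile normalization). Tpm4, a non-muscle tropomyosin, was at -0.44, and caldesmon Cald1, which links actin to myosin, at 0.36. Of 13 measured genes of the myosin motor and its control, 1 was at least 2-fold higher, Ppp1r14a or CPI-17, an inhibitor of myosin light chain phosphatase in smooth muscle, with signals of 141 and 611 and a difference of 1.58, or 0.74 with normexp and the 75th percentile. Non-muscle myosin Myh10 was at 0.52, or -0.20 with normexp and the 75th percentile, Myl6 at -0.35, or 0.08 after quantile normalization, and the phosphatase subunit Ppp1r12a at -0.41. Smooth muscle myosin Myh11 was not well above background, with signals of 7.14 and 14.3. The smooth muscle light chain kinase Mylk read 5.98 on the wild-type array, at background, and 21.9 on the ob/ob array, at least 1.23-fold higher.

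Serum response factor Srf had signals of 2397 and 3600 and a difference of 0.05, or -0.23 with scaling on the array median, and its coactivator myocardin, Myocd, of smooth and cardiac muscle, was at background on both arrays (2.81 and 2.54). Of 11 measured regulators 1 was at least 2-fold higher, the LIM protein Fhl2, itself a known target of serum response factor, with signals of 107 and 597 and a difference of 1.95, or 0.88 with normexp and the 75th percentile. Csrp2, a LIM protein of smooth muscle and stellate cells, stood at -0.92, or -1.20 with scaling on the array median. The factors Tead1 and Tead4 stood at -0.38 and -0.35. Among 15 measured focal adhesion and crosslinking genes 1 was at least 2-fold higher, the Z-disc protein Pdlim3 at 1.11, or 0.83 with scaling on the array median, 0.88 after quantile normalization and -0.29 with normexp and the 75th percentile. Zyxin, Zyx, was at -0.53, palladin, Palld, at -0.47 and parvin, Parva, at -0.46, though its 3 probes ran from -0.46 to 0.61 and averaged 0.11.

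Among the other intermediate filament genes 3 of 7 measured were at least 2-fold higher. Synemin, Synm, a partner of desmin, was at 1.28, with signals of 39.5 and 139, or -0.61 with normexp and the 75th percentile. Keratins Krt8 and Krt18, filaments of hepatocytes and bile duct cells and not of muscle, were at 2.90 and 2.81. Lamin Lmnb1 stood at -0.92, or -1.20 with scaling on the array median and -1.02 after quantile normalization. Gfap, a filament protein also known from stellate cells, read 2.86 and 13.4 and was above background on the ob/ob array alone, too dim for a fold.

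**Figure D4:**
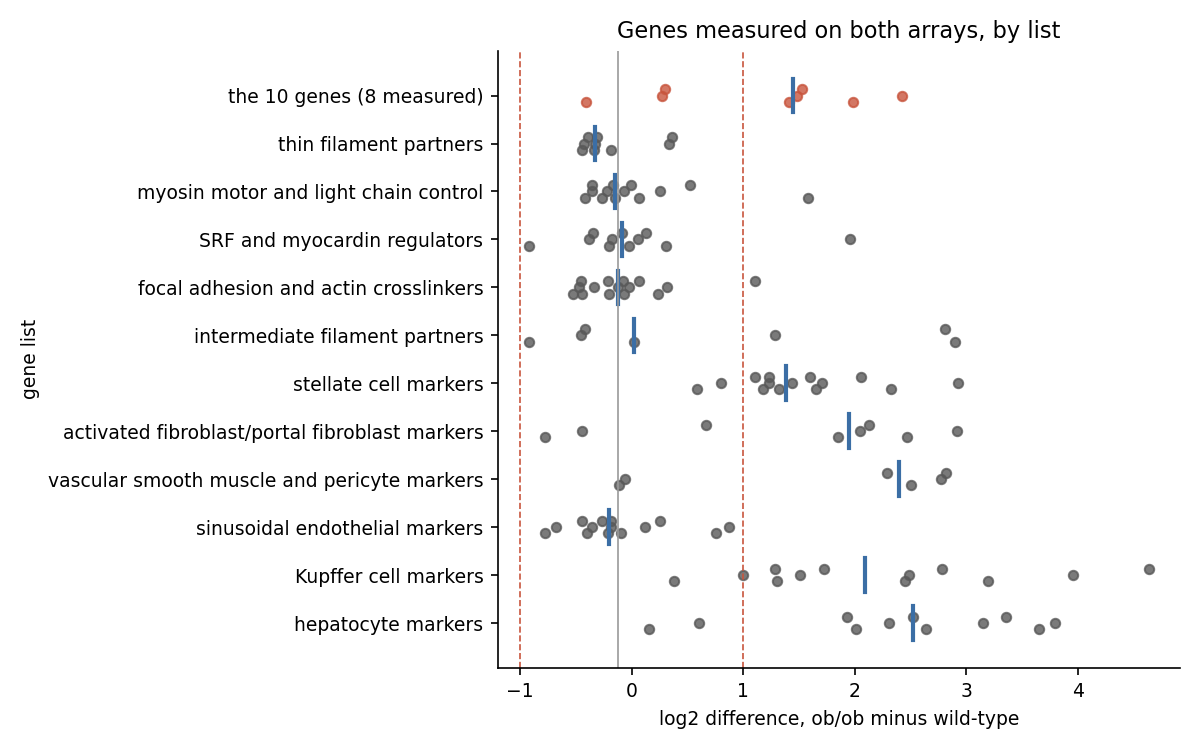
Difference of every gene measured on both arrays (log2, ob/ob minus wild-type), by gene list. Blue bars are list medians, dashed lines mark 2-fold and the grey line the median of all genes; the partner lists centre near that line while the stellate, fibroblast, mural, Kupffer and hepatocyte lists lie mostly to the right of the upper 2-fold line.

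Markers of the cells that carry such genes differed too. All 14 sinusoidal endothelial markers were measured on both arrays and lay within 2-fold (median -0.20). The widest were 0.88 for the angiopoietin receptor Tek, -0.77 for Bmp2, 0.75 for Gpr182 and -0.68 for Oit3. With scaling on the array median Bmp2 was at -1.05, the 1 marker of the 14 then beyond 2-fold. Of 14 measured stellate cell markers, 12 were at least 2-fold higher (median 1.38), and their summed level, in units of the 75th percentile of each array, was 18.0 and 64.1. Such sums are weighted toward bright probes and serve only to set the same probes of both arrays side by side. The retinol esterifying enzyme Lrat was at 2.32, the proteoglycan Dcn at 2.05, the factor Hand2 at 1.71 and the receptor Pdgfrb at 1.60, while Reln was above background on the ob/ob array alone. With normexp and the 75th percentile 5 of the 14 were at least 2-fold higher (median 0.54), with Lrat at 0.27, Dcn at 2.20, Hand2 at -0.84 and Pdgfrb at 0.72, and with scaling on the array median 8 were. Of 8 measured fibroblast markers 5 were higher (median 1.95, summed level 0.594 and 2.54), led by Col3a1 at 2.92, Timp1 at 2.47, Postn at 2.12 and Col1a2 at 2.04. The measured markers within 2-fold, named after their values were seen, were Entpd2 at 0.67, Eln at -0.45 and Gli1 at -0.78. Lox and Fbln1 were not well above background on either array. Of the 8, 1 was lower with scaling on the array median and 1 after quantile normalization, against 5.39% and 3.07% of all genes. With normexp and the 75th percentile 1 of the 8 was higher and 3 were lower, against 2.03% and 21.1% of all genes. Col3a1 was then at 0.91, Timp1 at 1.49, Postn at 0.73 and Col1a2 at 0.61. Col1a1 and Thy1 were at least 8.12-fold and 4.66-fold higher.

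Mural markers, those of pericytes and vascular smooth muscle, did not differ uniformly. Ednra, the endothelin receptor of contractile cells, was at 2.82, the potassium channel subunits Kcnj8 and Abcc9 at 2.77 and 2.29 and the pericyte regulator Rgs5 at 2.50, which makes 4 of 6 measured genes at least 2-fold higher (summed level 28.3 and 32.6). All 4 stayed above 2-fold with normexp and the 75th percentile, with Ednra at 1.60, Kcnj8 at 2.51 and Rgs5 at 1.46. Of the 6, 1 was then at least 2-fold lower, against 21.1% of all genes. The other 2 measured were the pericyte marker Higd1b, named after its value was seen, at -0.11 and Mcam, which endothelium also makes, at -0.06. A further Mcam probe stood at 2.39. Mcam, with signals of 26890 and 37400, was by far the brightest gene of this list and dominates its summed level. The defining genes of mature smooth muscle were not well above background on either array: Myh11, Lmod1 and Myocd, besides Cnn1 and Actg2 of the list itself. Cspg4 and Notch3 were above background on the ob/ob array alone, at least 1.06-fold and 1.05-fold higher.

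Most Kupffer cell and hepatocyte markers were higher in the ob/ob culture as well. Few cholangiocyte, mesothelial or lymphocyte markers were measured on both arrays, and none of those was at least 2-fold higher. Kupffer cell markers were higher in 11 of 12 (median 2.09, summed level 56.8 and 161), with Timd4 at 4.63, Aif1 at 3.96, Vsig4 at 3.20 and C1qa at 2.78. With normexp and the 75th percentile 11 of 12 were also higher, with Timd4 at 1.06. Hepatocyte markers were higher in 9 of 11 (median 2.53, summed level 8.98 and 50.4), with Cyp3a11 at 3.79, Apob at 3.65, Apoc3 at 3.36 and Alb at 3.15. With normexp and the 75th percentile 7 were higher and 2 lower, against 2.03% and 21.1% of all genes. Cyp3a11 was then at 1.59, Apob at 0.36, Apoc3 at 1.82 and Alb at 3.16. Of 6 cholangiocyte markers 1 was measured on both arrays, Cldn7 at 0.98 (-0.92 with normexp and the 75th percentile), and 4 on the ob/ob array alone, with Krt19 at least 1.87-fold and Sox9 at least 1.55-fold higher (summed level 0.0697 and 0.132). Of 6 mesothelial markers 5, Msln, Wt1 and Upk3b among them, were at background on both arrays, and Gpm6a was at 0.64, or -0.09 with that correction (summed level 0.178 and 0.264). Lymphocyte markers Cd3e and Nkg7 were at 0.19 and -0.19, or -0.70 and -0.45 with that correction, with Gzmb and Cd3d at least 8.80-fold and 6.44-fold higher (summed level 0.459 and 0.618). The part of these cells in the differences of the 10 genes was not tested, and with 1 culture per genotype the genotype and the make-up of the culture cannot be told apart.

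**Figure D5:**
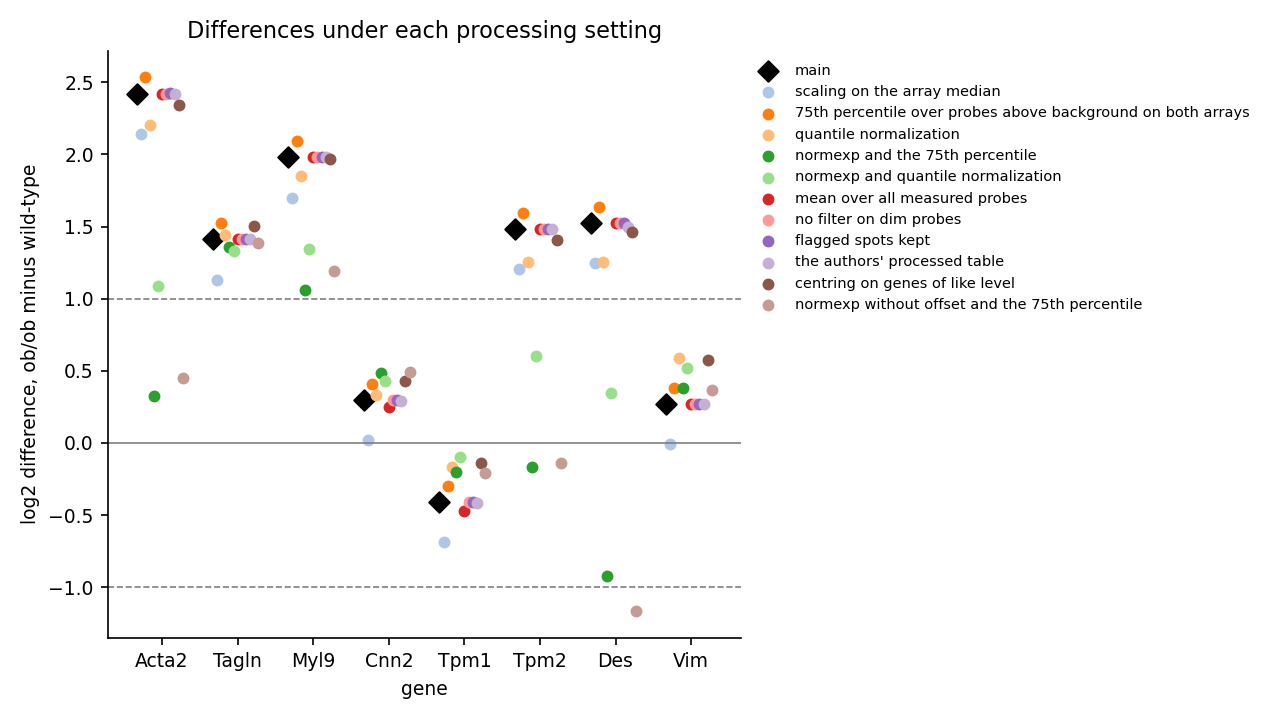
Difference of each of the 8 measured genes (log2, ob/ob minus wild-type) as reported (black diamonds) and under 11 other settings (coloured circles); dashed lines mark 2-fold. Tagln and Myl9 stay above the upper dashed line under all 11, Acta2 stays above 0, and Tpm2 and Des fall below 0 under both normexp settings scaled on the 75th percentile. Not all 11 settings could move a gene read by a single spot.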

How the data were processed

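Total RNA of each culture was labelled with Cy3 and hybridised to 1 single-colour Agilent array (probe coordinates on mm9 per the file headers); both arrays lie on 1 slide. The authors used Agilent Feature Extraction 11.0.1.1, per the submitters' processing notes. It removed spatial trends and background, gave spots at background a small substitute value, and left the deposited intensity unscaled between arrays, per the file headers. The authors' deposited table holds a linear ratio, each intensity over the 75th percentile of its array. Here each deposited intensity was divided by that percentile over 43020 non-control spots and put on a log2 scale. Outlier spots were dropped, spots of a probe averaged, and a gene given by its brightest probe measured on most arrays; measured means over 50% of spots well above background. Names came from RefSeq accessions (GRCm38.p6). A gene above background on 1 array has a bound against the dimmest signal called above background (12.3 and 11.7) or its own, whichever is higher. Some brighter spots were called not above background, such as the dimmer Tpm2 probe at 17.3 on the wild-type array. Folds given as at least a value are therefore nominal bounds. No spot of the 10 genes was saturated.

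Differences had a median SD of 0.20 by the scanner's error model, which rests largely on a preset proportional error, 0.05 over spot pairs of 259 probes and 0.33 over probes of the same gene (3693 genes). None of these holds biological spread, and having 1 array per genotype limits the precision. Besides the settings above, 9 others changed the scaling, background correction (normexp, limma 3.58.1), probe choice, dim-probe filter, dropped spots or source table, and 2 more (level centring, normexp without offset) were added after seeing the data. The 10 genes and the 14 other gene lists were chosen with earlier results of these data known. Named are all 10 genes, the 4 largest differences and 2 largest bounds of each list, and Srf, Myocd, Myh11, Mylk, Gfap, Lrat and Pdgfrb; 1 gene that this rule selects is not reported here. The calculation was tested on simulated arrays.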

Additional observations from a re-analysis of the deposited data

How the results depend on the processing

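Scaling, probe choice, outlier spots, level centring and the authors' deposited table left 5 of the 10 genes at least 2-fold higher and 0 lower. Background correction changed this. With normexp and the 75th percentile 2 were higher (median 0.35), with Acta2 at 0.33, Myl9 at 1.06, Tpm2 at -0.17 and Des at -0.92, and partner genes had 2 higher and 2 lower. Pdlim3 was then -0.29, Synm -0.61 and Hand2 -0.84. With normexp and quantile normalization 3 were higher (median 0.56), with Acta2 at 1.09, Myl9 at 1.35, Tpm2 at 0.60 and Des at 0.35. Normexp without offset, chosen after seeing the data, gave 2 higher and 1 lower (median 0.41), with Acta2 at 0.45, Myl9 at 1.19, Tpm2 at -0.14 and Des at -1.17, partner genes with 3 higher and 3 lower, Pdlim3 at -0.29, Synm at -0.70 and Hand2 at -1.03. Normexp left Actg2, at background on both arrays, at 203 for the wild-type and 75.7 for the ob/ob sample. Without a filter on dim probes the median over 10 genes was 0.86 and 2 partner genes were lower; 2 were lower when arrays were scaled on their median and 1 was lower after quantile normalization. Over all genes, scaling on the array median gave 767 higher and 977 lower against 1056 and 416, normexp with the 75th percentile 369 and 3828, normexp without offset 409 and 4461, normexp with quantile normalization 508 and 130, and no filter 2688 and 1637. Scaling on the array median moved the median of all genes from -0.12 to -0.40, and centring on genes of like level, also added, to 0. Of 550 values of 50 other named genes under these settings, 462 moved by less than the SD between probes of a gene. These include the 50 values without a dim-probe filter, which could not move because the genes were measured on both arrays. Keeping dropped spots and using the authors' table, which has the same scaling, changed 0 signs. The sign changed in 29 values of 12 genes, 6 of them values of genes called at least 2-fold higher, and of 27 genes beyond 2-fold the call was lost for 11 with normexp and the 75th percentile, 9 with normexp without offset, 3 with normexp and quantile normalization, and 1 each after quantile normalization and when arrays were scaled on their median. No paired analysis was possible because each group holds 1 array, and no replicate could be left out. Signal over background limits Des and the dimmer Tpm2 probe most.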
